A study of Saccharomyces cerevisiae x Saccharomyces paradoxus and Saccharomyces cerevisiae and Saccharomyces paradoxus with 10 samples.

Results

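The genes described are those for the small-subunit processome and its helpers in yeast, the factors that build the 40S ribosomal subunit. They were chosen by name from a list of 48 genes, and 46 of them had a place in the table of 4637 genes. RRP7 and UTP23 were not analysed here. All 46 passed the filter on low coverage that left 4544 genes for testing. The small-subunit processome is a large nucleolar particle that forms on the growing ribosomal RNA transcript around the U3 small nucleolar RNA. It folds and cuts that transcript so that the RNA of the small subunit is released, and most of its proteins are essential for growth. Its genes are known in S. cerevisiae as part of the ribosome biogenesis regulon, whose promoters often carry a pair of short elements called PAC and RRPE.

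Libraries were made from polyadenylated mRNA and from RPF, the footprints that ribosomes protect on mRNA, in a species hybrid and in its parents, so that each gene had an S. cerevisiae and an S. paradoxus value in every setting. The hybrid was a diploid from a cross of S. cerevisiae BY4176, labelled MAT-alpha, lys2 and ura::KAN, with S. paradoxus CBS432, labelled MATa and ura::HYG. As parents, S. cerevisiae BY4176 was haploid and S. paradoxus CBS432 diploid, with no marker named in the label, although the description of the mixed parental mRNA library speaks of haploid strains. Species, ploidy and mating type therefore cannot be told apart in any value that uses the parents. Hybrid mRNA and hybrid RPF had 2 libraries each. For parental RPF the parents were mixed, and 2 lanes belong to replicate 2. For parental mRNA there was a library of each parent and another of both mixed. Cells were started from single colonies and grown in rich medium at 30 °C for at least 16 h, and were harvested in log phase with an OD600 between 0.5 and 0.7. The footprints were taken from the monosome fraction of a gradient.

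Each gene's coverage was taken as a share of its column's total, in ppm of that total, over 16 columns. In each replicate the S. cerevisiae and S. paradoxus columns held almost the same total, between 60.6 and 167 Mb, because the authors scaled one species to the other. A species difference below is therefore a difference in share of the cell's measured coverage, not in amount per cell, and a change per cell cannot be told apart from another mix of cells in a culture. In each replicate the S. cerevisiae share was divided by the S. paradoxus share on the log2 scale, after adding 0.5 ppm. The ratio between the parents is the species difference, the ratio between the alleles inside the hybrid is the cis value, since both alleles share 1 cell, and the parental minus the hybrid ratio is the trans value. A gene was called where limma gave an adjusted p under 0.05 over all 4544 genes. The labels were checked with the mating genes: STE3, of MAT-alpha cells, had 855 and 854 ppm in the S. cerevisiae parent's mRNA, against 6.48 and 5.85 ppm in the S. paradoxus parent's. The haploid gene STE18 had 133 and 181 ppm in the S. cerevisiae parent's mRNA, against 3.22 and 3.65 ppm in the S. paradoxus parent's. URA3 had at most 12.5 ppm in the hybrid and at least 164 ppm in the parents, so hybrid and parents also differed at that gene.

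Short promoter windows are shown for 8 members because the PAC and RRPE cores recur in them. Each is 30 bases of the R64 genome of S. cerevisiae, found through the gene's systematic name and written in the direction of the gene, and lies within the 250 bases before the start codon. Capitals mark the PAC core (GATGAG, or CTCATC where it lies on the other strand) and the RRPE core (AAAATTTT, which reads the same on both strands).
NSR1 (chrVII:807818-807847, minus strand): gcagCTCATCgcaagaacgAAAATTTTcaa
DBP8 (chrVIII:442027-442056, plus strand): gaaaaaAAAATTTTtacCTCATCgcggatt
BMS1 (chrXVI:143267-143296, minus strand): aatgaAAAATTTTcaaggcGATGAGctgaa
DIP2 (chrXII:399524-399553, plus strand): aaacgcGATGAGcagtggAAAATTTTtcag
UTP7 (chrV:326051-326080, minus strand): gtaagAAAATTTTctaagcGATGAGttcgt
NOP56 (chrXII:545967-545996, plus strand): agtGATGAGatgggaaatgaAAAATTTTgt
DHR2 (chrXI:288762-288791, plus strand): tctgctcGATGAGATGAGATGAGgttatga
UTP15 (chrXIII:453881-453910, plus strand): gAAAATTTTtggaataactgaAAAATTTTg
The first 6 hold both cores, DHR2 holds overlapping copies of the PAC core in which each shares a base with the next, and UTP15 holds the RRPE core more than once with no PAC core in the 250 bases. The PAC and RRPE cores cannot overlap each other. Over both strands of the 250 bases, the PAC core was found in 41 of the 46 members (89.1%) and in 17.5% of the 4313 tested genes that could be placed in R64. The RRPE core was found in 34 members (73.9%) and in 9.65% of those genes, and both cores in 32 members (69.6%) and in 5.08%. In 27 members both cores fell into a single window of 30 bases. EMG1, ESF2 and UTP22 had neither. The PAC core closest to the start codon lay a median of 109 bases upstream of it in members with one, against 122 bases in all placed genes with one. A TATA box was marked in the authors' deposited table for 1 member, KRE33 (2.17%), against 14.3% of the genes with a mark of either kind. Median promoter divergence between the species was 20.9% in the 43 members with a value and 20.5% in the 3591 tested genes with one. NSR1, RRP9 and SAS10 had no such value. Median coding divergence was 9.13% in members and 10.1% over all tested genes. Both kinds of divergence are as deposited. These are descriptions with no test, and the S. paradoxus promoters were not analysed here.

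Inside the group, the level per length spanned a wide range. The methyltransferase fibrillarin, NOP1, was the highest member in mRNA in every setting, with 2859.6 ± 6.96 ppm per kb for the S. cerevisiae and 3012 ± 272 ppm per kb for the S. paradoxus allele in the hybrid (SD, n = 2). In the parents it had 1848 ± 125 ppm per kb in S. cerevisiae and 2851 ± 144 in S. paradoxus. The large scaffold protein gene UTP20 was the lowest, with 36.2 ± 6.14 ppm per kb in the S. cerevisiae parent and 61.3 ± 3.98 in the S. paradoxus parent. NSR1, for the nucleolin-like protein, changed its place: it was second in the S. paradoxus parent with 2541 ± 10.6 ppm per kb and lower down in the S. cerevisiae parent with 424 ± 4.75, below NOP1, NOP56, NOP58 and EMG1. In S. cerevisiae the neighbours NOP56 (925 ± 111 ppm per kb) and NOP58 (837 ± 194) did not differ beyond their spread. The median member had 165 ppm per kb of mRNA in the S. cerevisiae parent, against 265 in the S. paradoxus parent, where the median of all tested genes was 128 and 122. In the hybrid the median member had 260.2 ppm per kb for the S. cerevisiae and 275 for the S. paradoxus alleles.

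Summed over the 46 members, mRNA made up 12982 and 11019 ppm of the S. cerevisiae parent's coverage, against a mean of 21021 ppm in the S. paradoxus parent. In the hybrid the S. cerevisiae alleles summed to a mean of 22284 ppm and the S. paradoxus alleles to 23031 ppm. RPF followed the same order, with means of 11996 ppm in the S. cerevisiae and 20888 ppm in the S. paradoxus parent, and of 21066 and 22865 ppm for the S. cerevisiae and S. paradoxus alleles of the hybrid. The S. cerevisiae parent is thus the low one of the 4 sources in both fractions.

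Between the parents, 43 of the 46 members were called lower in S. cerevisiae in mRNA and none higher, beside 26.9% and 29.8% of all genes tested. The values of all 46 were below 0, from -2.60 for NSR1 to -0.18 for NOP56 on the log2 scale, with a median of -0.73 for members and 0.04 over all genes. In 45 members both S. cerevisiae columns lay below both S. paradoxus columns, beside 36.5% of all genes, and UTP11 was the exception. ESF1, UTP11 and NOP56 were not called.

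NSR1 had 295 and 290.0 ppm in S. cerevisiae, against 1771 and 1782 ppm in S. paradoxus. The S. paradoxus columns stood far above, and the replicates of each parent lay close together. The difference was 6.07-fold (log2 -2.60 ± 0.12 SE, adjusted p = 4.66e-06, limma). The helicase gene DHR2 had 99.9 and 78.4 ppm in S. cerevisiae, against 216 and 232 ppm in S. paradoxus, a log2 value of -1.33 ± 0.14 (adjusted p = 1e-04, limma). For the helicase gene DBP8 the shares were 117 and 139 ppm in S. cerevisiae, against 283 and 330.3 ppm in S. paradoxus, a log2 value of -1.26 ± 0.10 (adjusted p = 2.77e-05, limma). For neither helicase did the parents overlap. BMS1, the GTPase of the processome, had 265 and 199 ppm in S. cerevisiae, against 491 and 528 ppm in S. paradoxus, and its log2 value was -1.15 ± 0.14 (adjusted p = 0.000181, limma). DIP2, a beta-propeller protein of UTP-B, had 291 and 236 ppm in S. cerevisiae, against 564 and 592 ppm in S. paradoxus, with a log2 value of -1.14 ± 0.12 (adjusted p = 9.74e-05, limma). Both genes were lower in every S. cerevisiae column. At the other end, NOP56, a core protein of the box C/D particles that include U3, had 787 and 664 ppm in S. cerevisiae, against 802 and 833 ppm in S. paradoxus; its S. cerevisiae columns were lower by less than the spread allowed for (adjusted p = 0.294, limma).

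By subcomplex, all 7 measured members of UTP-A, which binds the start of the transcript first, were called lower in S. cerevisiae, between -1.02 for UTP15 and -0.68 for NAN1. UTP15 had 203 and 179 ppm in S. cerevisiae, against 381 and 396 ppm in S. paradoxus. NAN1 had 348 and 277 ppm in S. cerevisiae, against 506 and 491 ppm in S. paradoxus. In both genes the parents were apart. All 6 members of UTP-B, which contacts U3 in the particle, were called lower, from DIP2 to UTP21 at -0.46. UTP21 had 399.8 and 320.0 ppm in S. cerevisiae, against 497 and 486 ppm in S. paradoxus, and its call was lost without parental replicate 2 (adjusted p = 0.137, limma). UTP22, the measured member of UTP-C, had 281 and 239.6 ppm in S. cerevisiae, against 399 and 384 ppm in S. paradoxus, a log2 value of -0.59.

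Of the 4 proteins of the U3 particle, NOP1, NOP58 and RRP9 were called lower in S. cerevisiae, and RRP9, the protein particular to U3 among them, had the lowest value at -1.06. RRP9 had 219 and 180.2 ppm in S. cerevisiae, against 406 and 425 ppm in S. paradoxus. The MPP10 complex, which helps U3 to pair with the transcript, was called lower in all 3 members. IMP3 had 58.8 and 63.1 ppm in S. cerevisiae, against 115 and 151 ppm in S. paradoxus (log2 -1.10), and IMP4 had 135 and 132 ppm in S. cerevisiae, against 152 and 228 ppm in S. paradoxus (log2 -0.48). For IMP3 the parents were well apart, while for IMP4 one S. paradoxus column lay near the S. cerevisiae ones and the call was lost without parental replicate 2 (adjusted p = 0.355, limma).

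All 8 helicases, GTPase and partner genes were called lower, with ESF2, the partner of DBP8, nearest to 0 at -0.29. ESF2 had 168 and 179 ppm in S. cerevisiae, against 194 and 231 ppm in S. paradoxus, and its call was lost without either parental replicate (adjusted p = 0.0832 and 0.284, limma). Of the enzymes that modify the RNA, the methyltransferase gene EMG1 had 173 and 178 ppm in S. cerevisiae, against 229 and 300.0 ppm in S. paradoxus. The acetyltransferase gene KRE33 had 231 and 218 ppm in S. cerevisiae, against 329 and 324 ppm in S. paradoxus. Their log2 values were -0.58 and -0.54, both called, and EMG1 lost its call without parental replicate 2 (adjusted p = 0.12, limma). Among the other assembly factors 12 of 14 were called lower. RRP5, an RNA-binding protein needed for both subunits, had 404 and 319.6 ppm in S. cerevisiae, against 734 and 699 ppm in S. paradoxus (log2 -0.99), and UTP11 had 122 and 149.6 ppm in S. cerevisiae, against 140.3 and 171 ppm in S. paradoxus (log2 -0.19), the only member whose parental columns overlapped.

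The parental replicates moved the members together. In 43 of 46 members the ratio was lower in parental mRNA replicate 2 than in replicate 1, beside 53.2% of all genes, and the median difference between replicates was 0.32 for members and 0.19 over all genes. In RPF 39 members had the lower ratio in parental replicate 2, beside 57.3% of all genes. The summed S. cerevisiae share of mRNA was also lower in replicate 2. The part of these replicate differences in the result was not tested. With either parental mRNA replicate alone, fewer members and fewer genes over all were called. The fall in members was larger with replicate 1 alone. All 46 member values in mRNA stayed below 0.

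**Figure D1:**
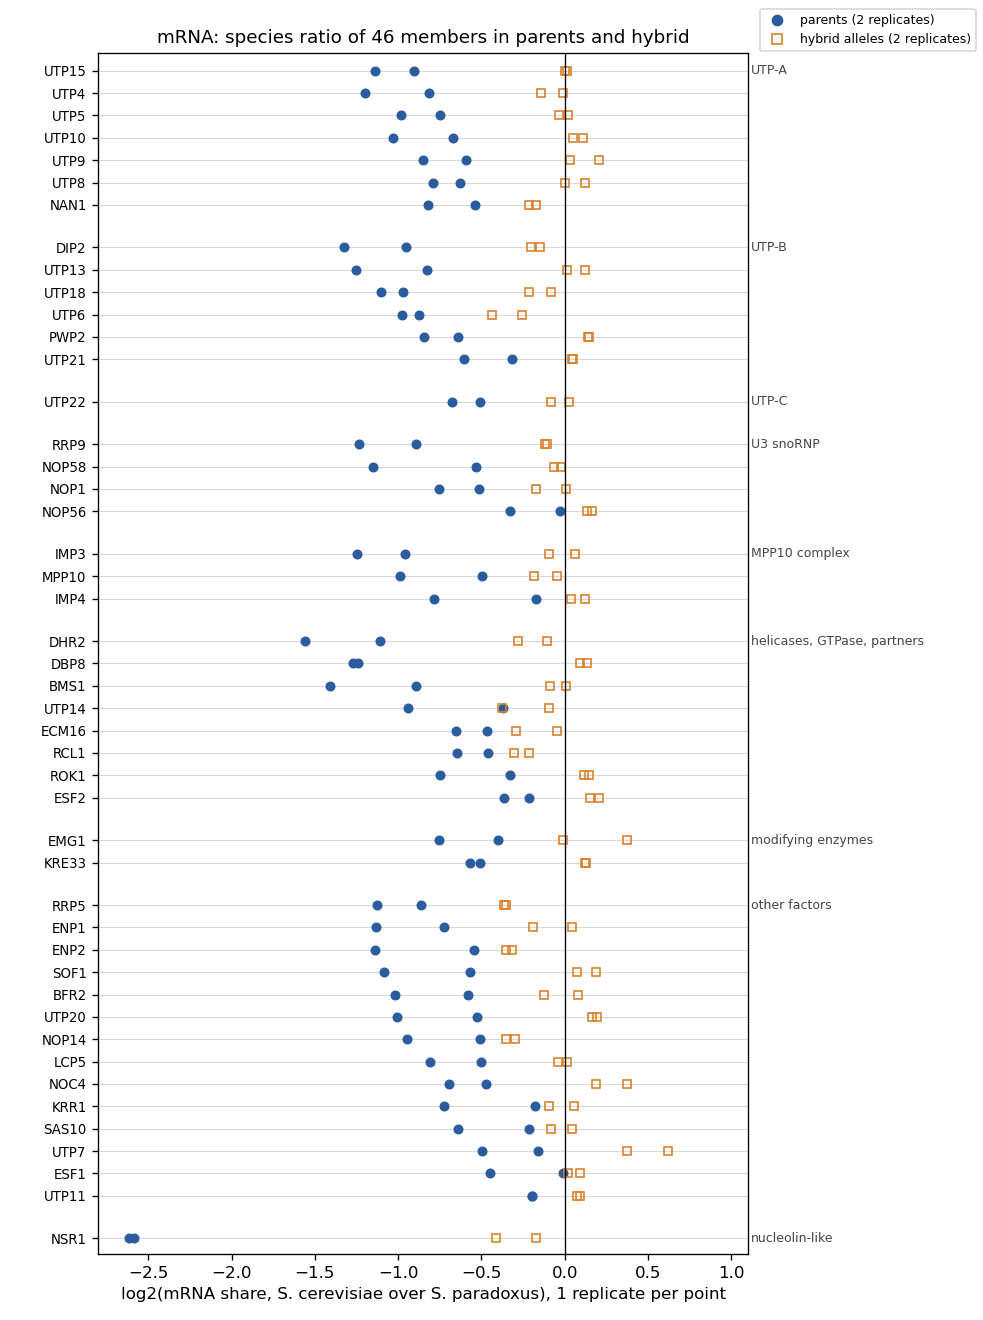
mRNA ratio of S. cerevisiae over S. paradoxus (log2, x axis) for the 46 members by role, in the parents (filled circles) and between the alleles of the hybrid (open squares), 1 point per replicate. Parental points lie below 0 for all 46 members, with NSR1 farthest at -2.59 and -2.62, while hybrid points lie around 0.

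Inside the hybrid the mRNA of the 2 alleles was near parity. One member was called higher for the S. cerevisiae allele and 1 lower, beside 15.5% and 17.9% of all genes, and the median was -0.02, as it was over all genes. At an unadjusted p under 0.05 there were 7 members, beside 2053 of the 4544 genes tested. UTP7, a beta-propeller protein of the processome, had 347 and 421 ppm for the S. cerevisiae allele, against 268 and 273 ppm for the S. paradoxus allele. The alleles did not overlap, and the difference was 1.41-fold (log2 0.50 ± 0.11, adjusted p = 0.00915, limma). RRP5 had 1145 and 1141 ppm for the S. cerevisiae and 1471 and 1458 ppm for the S. paradoxus allele (log2 -0.36 ± 0.10, adjusted p = 0.0237, limma). Both calls were lost in some alternatives: UTP7 without hybrid replicate 2 (adjusted p = 0.153, limma) and RRP5 without either replicate (adjusted p = 0.134 and 0.152, limma). NSR1, the farthest between the parents, had 1001 and 934 ppm for the S. cerevisiae and 1334 and 1053 ppm for the S. paradoxus allele, with a 95% interval of -0.55 to -0.04 on the log2 scale and no call (adjusted p = 0.0711, limma).

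The direct test of parental minus hybrid ratio called 34 members lower and none higher, beside 13.5% and 17.2% of all genes. The values ran from -2.31 for NSR1 to -0.28 for UTP11, with a median of -0.76 for members and 0.05 over all genes. In 45 members both parental ratios lay below both hybrid ratios, beside 31.1% of all genes, and UTP14 was the exception. For NSR1 the ratios were -2.59 and -2.62 in the parents, against -0.42 and -0.17 in the hybrid (log2 -2.31 ± 0.16, adjusted p = 6.27e-05, limma). DBP8 had -1.27 and -1.24 in the parents and 0.09 and 0.14 in the hybrid (log2 -1.37 ± 0.13, adjusted p = 0.000259, limma). In both genes the hybrid stood much nearer to 0 than the parents. DHR2 had -1.11 and -1.56 in the parents and -0.11 and -0.28 in the hybrid. BMS1 had -0.89 and -1.41 in the parents and -0.09 and 0.01 in the hybrid. UTP13, of UTP-B, had -0.83 and -1.25 in the parents and 0.01 and 0.12 in the hybrid. Their trans values were -1.14, -1.11 and -1.10. For UTP7 the parental ratios were -0.16 and -0.50, against 0.37 and 0.62 in the hybrid, and the trans value was -0.83 ± 0.16 (adjusted p = 0.00687, limma). Its calls pointed in opposite directions in parents and hybrid, but without parental mRNA replicate 2 the parental call was lost at a log2 value of -0.16 (adjusted p = 0.439, limma), as was the trans call (adjusted p = 0.0584, limma).

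By role, trans calls were made for 7 of 7 members of UTP-A, 5 of 6 of UTP-B, UTP22, 3 of 4 U3 proteins, 2 of 3 of the MPP10 complex, 5 of 8 helicases, GTPase and partners, both modifying enzymes, 8 of 14 other factors and NSR1. As calls over all genes did, the member count fell without parental mRNA replicate 2 and without hybrid mRNA replicate 2. The most calls were lost without parental mRNA replicate 2. Some were also lost without hybrid mRNA replicate 1 or parental mRNA replicate 1. The member count was 11 with equal weights for all settings, beside 3.32% of all genes lower, with all 46 values still below 0. Cis and trans values use the same hybrid libraries and are not independent of each other.

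**Figure D2:**
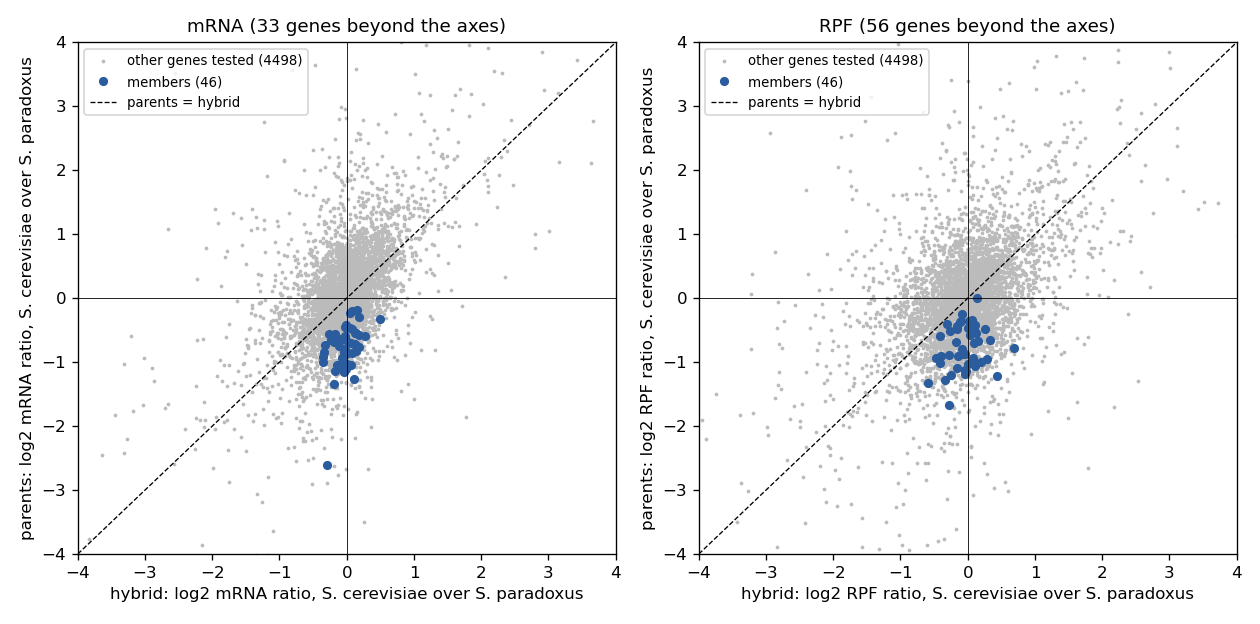
Hybrid ratio (x axis) against parental ratio (y axis), log2 of S. cerevisiae over S. paradoxus, for mRNA and RPF, with the 46 members in blue and 4498 other tested genes in grey. Members form a column around 0 on the x axis and below 0 on the y axis, with medians of -0.02 and -0.73 in mRNA and of -0.04 and -0.83 in RPF; 33 genes in mRNA and 56 in RPF lie beyond the axes.

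To see which parent differs from the hybrid, the share of each hybrid allele was set against its own parent. For S. cerevisiae mRNA 43 members were called higher in the hybrid and none lower, beside 20.9% and 29.4% of all genes, with a median of 0.75. For S. paradoxus mRNA 12 were called higher and 6 lower, beside 14.7% and 17.5%, with a median of 0.03. All 46 S. cerevisiae values were above 0, and in 40 members the S. cerevisiae value was larger in size than the S. paradoxus value. UTP20 had 689 and 799 ppm of S. cerevisiae mRNA in the hybrid, against 247 and 194 ppm in the parent, 3.38-fold higher (adjusted p = 1.79e-08, limma). NSR1 had 1001 and 934 ppm in the hybrid and 295 and 290.0 ppm in the S. cerevisiae parent, 3.30-fold higher (adjusted p = 1.22e-10, limma). Both hybrid columns were far above the parental ones in each. RRP5 had 1145 and 1141 ppm in the hybrid, against 404 and 319.6 ppm in the S. cerevisiae parent, 3.18-fold higher. UTP10, a large HEAT-repeat protein of UTP-A, had 909 and 963 ppm in the hybrid, against 341 and 256 ppm in the S. cerevisiae parent, 3.16-fold higher. BMS1 had 629.5 and 727 ppm in the hybrid, against 265 and 199 ppm in the S. cerevisiae parent, 2.95-fold higher. In these genes too the groups did not overlap.

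The S. paradoxus alleles went both ways. NSR1 had 1334 and 1053 ppm of S. paradoxus mRNA in the hybrid, against 1771 and 1782 ppm in the parent (log2 -0.58, adjusted p = 0.000462, limma). DBP8 had 198 and 172 ppm in the hybrid and 283 and 330.3 ppm in the S. paradoxus parent (log2 -0.73, adjusted p = 0.000199, limma). For these genes the hybrid level lay between the levels of the parents in both alleles. IMP3 had 88.4 and 93.2 ppm in the hybrid and 115 and 151 ppm in the S. paradoxus parent (log2 -0.53). EMG1 had 229 and 170.2 ppm in the hybrid and 229 and 300.0 ppm in the S. paradoxus parent (log2 -0.41), and its columns overlapped. UTP15 had 303 and 292 ppm in the hybrid and 381 and 396 ppm in the S. paradoxus parent (log2 -0.39). UTP7, at -0.32, was the last of the 6 called lower. The calls of IMP3, EMG1, UTP15 and UTP7 were lost without parental mRNA replicate 2 (adjusted p = 0.227, 0.383, 0.0591 and 0.366, limma), and each was also lost without a hybrid replicate, between an adjusted p of 0.0687 for IMP3 and 0.455 for EMG1 by limma. RRP5 had 1471 and 1458 ppm in the hybrid and 734 and 699 ppm in the S. paradoxus parent, 2.04-fold higher (adjusted p = 5.28e-07, limma). UTP20 had 615 and 698 ppm in the hybrid and 357 and 391 ppm in the S. paradoxus parent (log2 0.81). UTP10 had 877 and 894 ppm in the hybrid and 543 and 525 ppm in the S. paradoxus parent (log2 0.73). In all 3 the hybrid columns were above the parental ones, and the same held for ECM16, a helicase, and its activator UTP14. ECM16 had 516 and 556 ppm in the hybrid and 365 and 325 ppm in the S. paradoxus parent (log2 0.64). UTP14 had 551 and 591 ppm in the hybrid and 384 and 396 ppm in the S. paradoxus parent (log2 0.55).

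Gene length moved with these values. As a description across genes, which share the same libraries, Spearman's rho over the 46 members between unmasked length and hybrid over parent mRNA was 0.75 in S. cerevisiae and 0.79 in S. paradoxus, and over 4544 genes it was 0.47 and 0.45. Members were longer, with a median of 1376 unmasked bases against 1011 over all genes, from 255 in IMP3 to 6100 in UTP20. With the trend with length over all genes taken out, an alternative added after the data were seen, 45 members were called higher in S. cerevisiae, beside 18.3% of all genes. In S. paradoxus 3 were then called higher and 6 lower, beside 12.5% and 14.8% of all genes, and UTP20 turned to -0.10 with no call. The species ratios carried little of the trend (rho of -0.18 between the parents and -0.17 in the hybrid over the members).

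**Figure D3:**
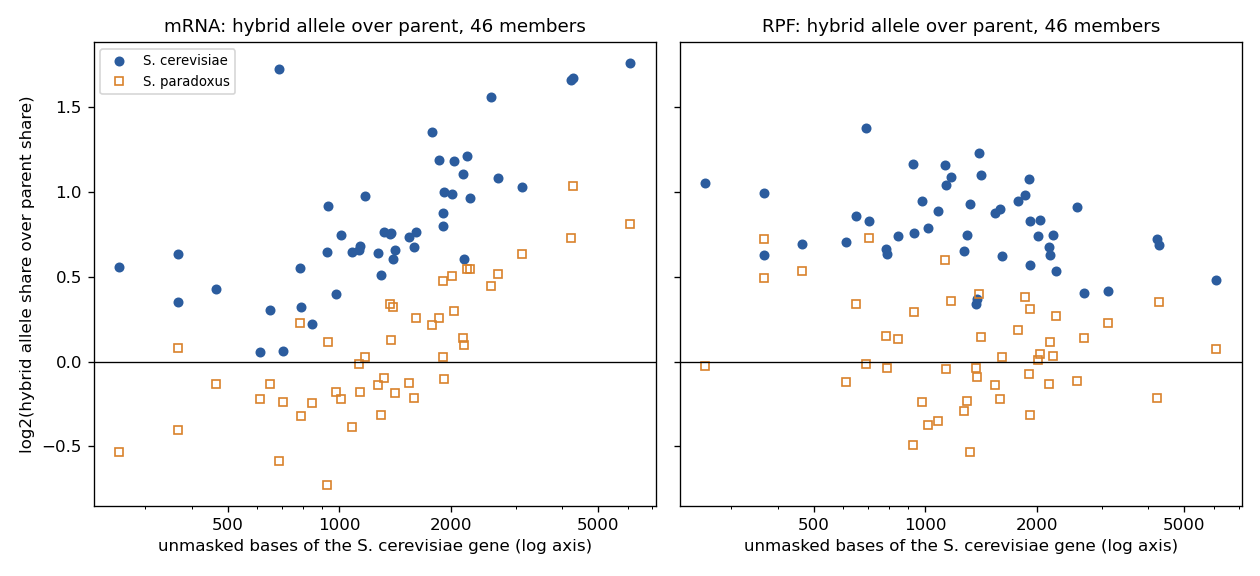
log2 of the hybrid allele's share over the parent's share (y axis) against the unmasked bases of the gene (x axis, log scale) for the 46 members, in S. cerevisiae (filled circles) and S. paradoxus (open squares), for mRNA and RPF. S. cerevisiae values are above 0 throughout, with medians of 0.75 and 0.77, whereas S. paradoxus values scatter on both sides of 0, and the mRNA values of both species climb with length.

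In RPF 31 members were called lower in the S. cerevisiae parent and none higher, beside 18.3% and 13.8% of all genes. The median was -0.83, against -0.07 over all genes, and values ran from -1.66 for NSR1 to 0.01 for EMG1. In 42 members both S. cerevisiae columns lay below both S. paradoxus columns, beside 40.2% of all genes, the exceptions being EMG1, NOP56, IMP4 and UTP20. NSR1 had 680.4 and 789 ppm in S. cerevisiae, against 2441 and 2214 ppm in S. paradoxus (log2 -1.66 ± 0.21, adjusted p = 0.00117, limma). RRP9 had 105 and 118 ppm in S. cerevisiae, against 260.4 and 299 ppm in S. paradoxus (log2 -1.32 ± 0.20, adjusted p = 0.00244, limma). The parents stood apart in both genes and in the ones that follow. BFR2, a nucleolar assembly factor, had 132 and 148 ppm in S. cerevisiae, against 332 and 348 ppm in S. paradoxus (log2 -1.28). DBP8 had 81.4 and 69.9 ppm in S. cerevisiae, against 174 and 179 ppm in S. paradoxus (log2 -1.22), and UTP9, of UTP-A, had 112 and 95.4 ppm in S. cerevisiae, against 209.7 and 272 ppm in S. paradoxus (log2 -1.21). EMG1, by contrast, had 192 and 199.8 ppm in S. cerevisiae, against 182 and 209 ppm in S. paradoxus, and its columns overlapped.

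RPF calls covered all 6 members of UTP-B, 6 of 7 of UTP-A, 2 of 4 U3 proteins, 1 of 3 of the MPP10 complex, 5 of 8 helicases, GTPase and partners, KRE33, 9 of 14 other factors and NSR1. Of the 43 mRNA calls 67.4% were also RPF calls, and of the 31 RPF calls 93.5% were also mRNA calls, 29 members in all. ESF1 and UTP11 were called in RPF alone, and NOP56 in neither. With either parental RPF replicate left out, most of the 31 member calls in RPF were lost, as were most calls over all genes. Of the members whose RPF values are given above, BFR2 lost its RPF call without either replicate (log2 -1.23 and -1.33). UTP9 lost its call without replicate 2 (log2 -0.91). The RPF calls of ESF1 (log2 -0.89 and -0.85) and UTP11 (log2 -0.77 and -0.57) were also lost without either replicate. KRE33 (log2 -0.53) and every member of UTP-B lost their RPF calls without replicate 2. Every member of UTP-B but UTP18 lost its call without replicate 1 as well. UTP10 had the widest gap between its parental RPF replicates, at -0.43 and -1.77.

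Between the hybrid's alleles no member was called in RPF by limma, beside 7.53% of all genes. An unadjusted p under 0.05 was found for 2 members, beside 1126 of the 4544 genes tested. With equal weights for all settings limma called 1. The 2 members were RRP9, with 243 and 232 ppm for the S. cerevisiae and 359.5 and 355 ppm for the S. paradoxus allele, and NOC4, a partner of NOP14, with 248 and 219 ppm for the S. cerevisiae and 159.8 and 130.0 ppm for the S. paradoxus allele. Their log2 values were -0.59 and 0.69, the lowest and highest of the members, and neither pair of alleles overlapped. The median was -0.04.

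The parental minus hybrid test in RPF called 3 members lower and none higher, beside 2.86% and 2.46% of all genes. An unadjusted p under 0.05 was found for 23 members, beside 1093 of the 4544 genes tested. All 46 values were below 0 with a median of -0.73, and in 40 members both parental ratios lay below both hybrid ratios, beside 30.1% of all genes. DBP8 had ratios of -1.09 and -1.35 in the parents, against 0.35 and 0.53 in the hybrid (log2 -1.66 ± 0.26, adjusted p = 0.0123, limma). NSR1 had -1.84 and -1.49 in the parents and -0.26 and -0.29 in the hybrid (log2 -1.39 ± 0.32, adjusted p = 0.044, limma). UTP15 had -0.90 and -0.98 in the parents and 0.30 and 0.29 in the hybrid (log2 -1.24 ± 0.27, adjusted p = 0.0382, limma). Parental ratios were below hybrid ones in each. The spread between RPF replicates was larger than in mRNA, with a median standard error of 0.32 for members in this test and 0.16 in its mRNA counterpart. The count was 19 with equal weights for all settings, beside 10.1% of all genes lower, and between 0 and 2 with 1 RPF replicate left out; the calls of NSR1 and UTP15 were lost without any 1 of the 4 RPF replicates, and that of DBP8 without hybrid replicate 2 or either parental replicate (adjusted p between 0.0574 and 0.0819, limma).

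**Figure D4:**
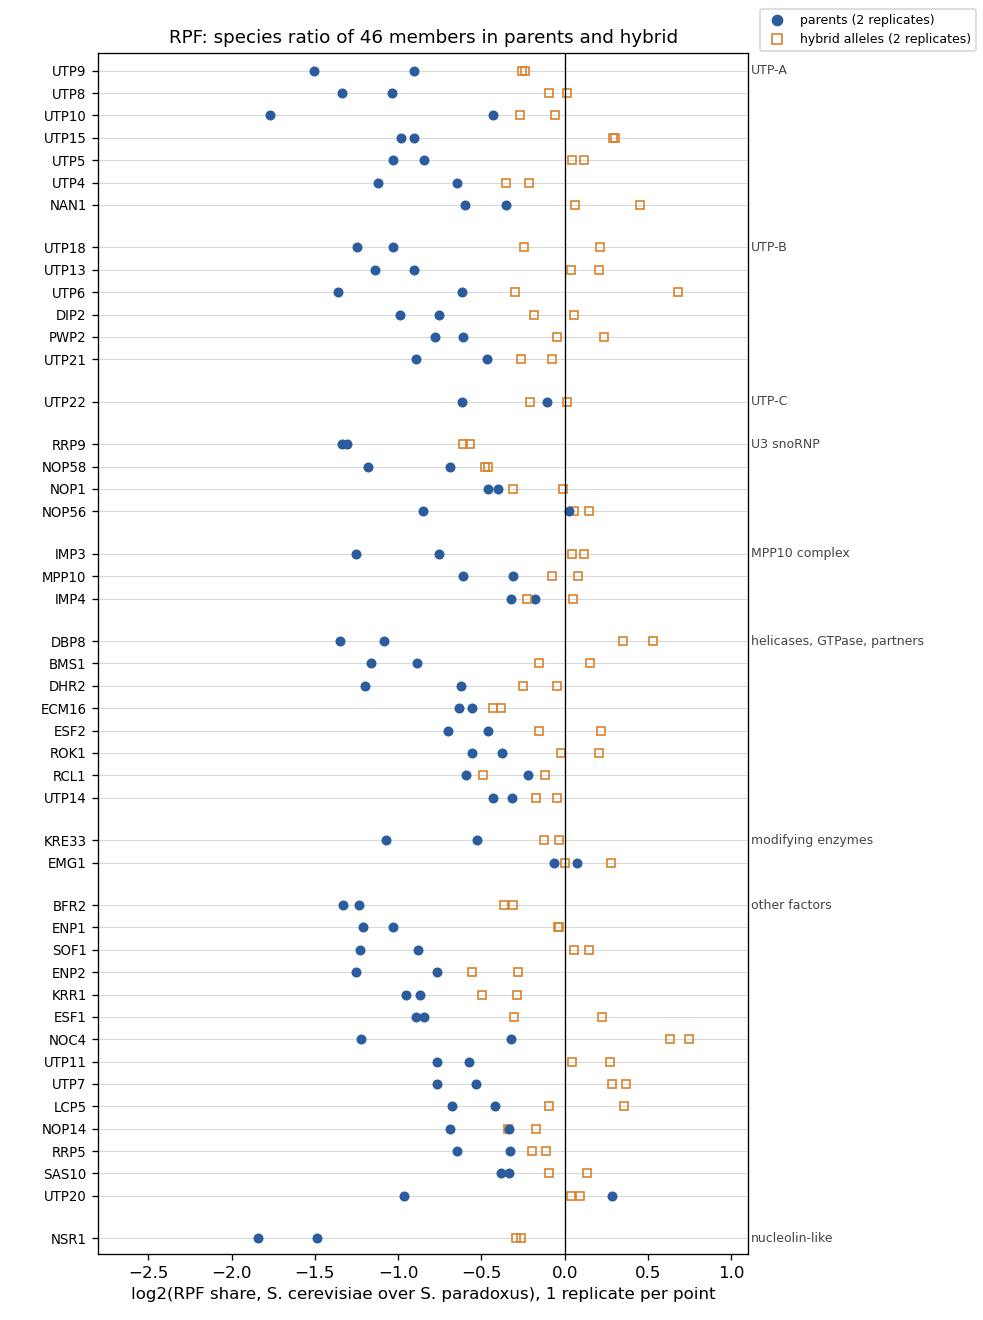
RPF ratio of S. cerevisiae over S. paradoxus (log2, x axis) for the 46 members by role, in the parents (filled circles) and between the alleles of the hybrid (open squares), 1 point per replicate. Most parental points lie below 0 and left of the hybrid points, with NSR1 at -1.84 and -1.49 and UTP10 the most spread at -0.43 and -1.77.

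Against its own parent, the S. cerevisiae RPF share was called higher in the hybrid for 36 members and lower for none, beside 10.1% and 9.75% of all genes, with a median of 0.77. In all 46 both hybrid columns were above both parental columns, beside 30.1% of all genes. For S. paradoxus RPF 2 were called higher and none lower, beside 4.01% and 7% of all genes, with a median of 0.03. NSR1 had 1964 and 1844 ppm of S. cerevisiae RPF in the hybrid, against 680.4 and 789 ppm in the parent, 2.60-fold higher (adjusted p = 2.11e-05, limma). ESF1 had 444 and 534 ppm in the hybrid and 185 and 233 ppm in the S. cerevisiae parent, 2.35-fold higher. DBP8 had 169 and 171 ppm in the hybrid and 81.4 and 69.9 ppm in the S. cerevisiae parent, 2.24-fold higher. The groups stood apart in these genes, as in the helicase gene ROK1 and in UTP9. ROK1 had 302 and 357 ppm in the hybrid and 146 and 149 ppm in the S. cerevisiae parent, 2.23-fold higher. UTP9 had 209 and 235 ppm in the hybrid and 112 and 95.4 ppm in the S. cerevisiae parent, 2.15-fold higher. The S. paradoxus genes called were NOP1, with 1665 and 1981 ppm in the hybrid and 1127 and 1075 ppm in the parent, and RCL1, a partner of BMS1, with 201 and 209 ppm in the hybrid and 106 and 144 ppm in the parent. RPF values had no such trend with length (rho of -0.32 in S. cerevisiae and -0.09 in S. paradoxus over the members). Without hybrid RPF replicate 1 or 2 the S. cerevisiae and S. paradoxus counts fell, as calls over all genes did. Of the S. paradoxus calls that of NOP1 alone held without replicate 1, and neither held without replicate 2.

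**Figure D5:**
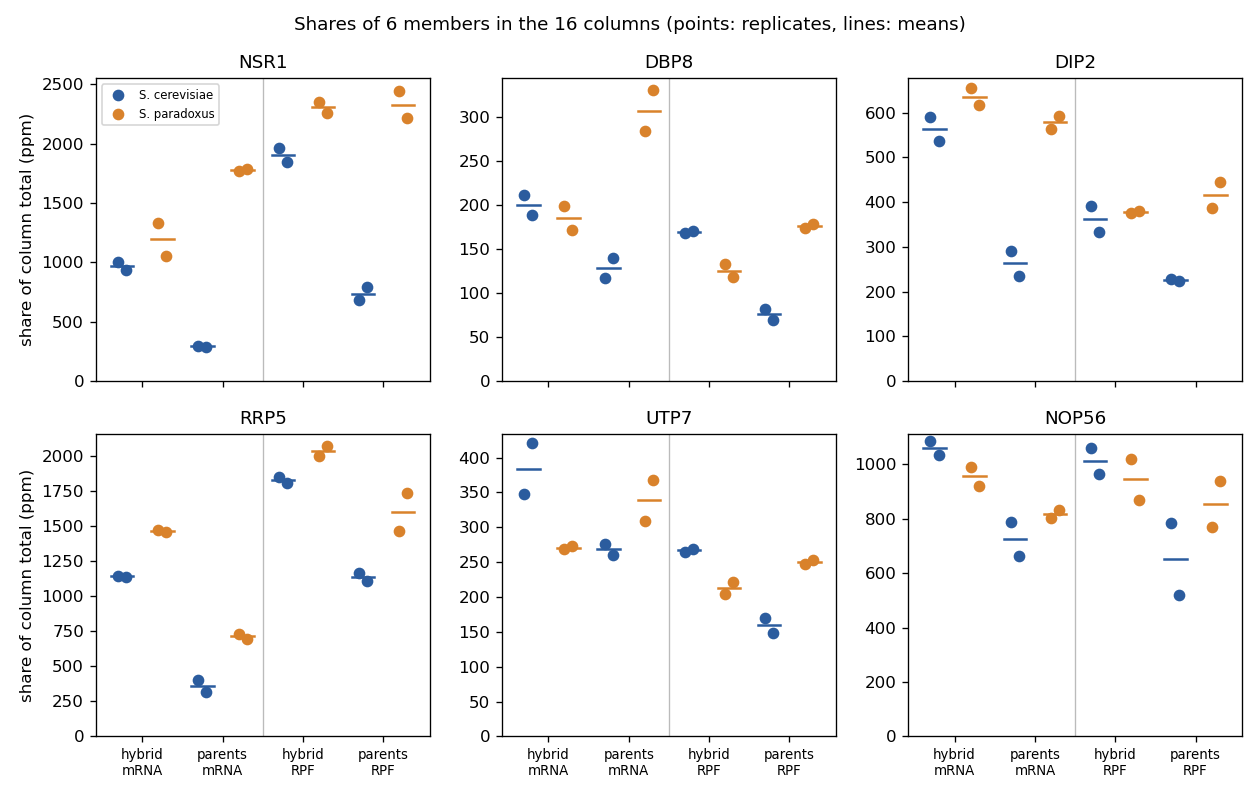
Share of column total (ppm, y axis) of 6 members in the 16 columns, with 1 point per replicate and a line at the mean, for S. cerevisiae (blue) and S. paradoxus (orange) in hybrid and parents. For NSR1, DBP8, DIP2 and RRP5 the S. cerevisiae parent is the lowest source in mRNA and in RPF, for UTP7 the alleles of the hybrid are in the opposite order to the parents, and for NOP56 the parents lie close in mRNA.

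The RPF ratio minus the mRNA ratio compares ribosome occupancy between the species beyond mRNA. Between the parents limma called no member, beside 2.16% of all genes. At an unadjusted p under 0.05 there were 4 members, beside 910 of the 4544 genes tested. Between the hybrid's alleles limma called none, beside 0.44% of all genes. No member had an unadjusted p under 0.05 there, beside 658 of the 4544 genes. With equal weights for all settings limma called none in either. The median of the members was 0.03 between the parents and -0.04 in the hybrid. NSR1 was the farthest, at 0.94 ± 0.25 between the parents (adjusted p = 0.0854, limma), where its RPF difference was 3.17-fold and its mRNA difference 6.07-fold. The log2 of RPF over mRNA for NSR1 was 1.32 in the S. cerevisiae and 0.39 in the S. paradoxus parent, and 0.98 and 0.96 for the S. cerevisiae and S. paradoxus alleles of the hybrid. At the other end ESF1 had -0.64 ± 0.26 between the parents. Within the S. cerevisiae parent the log2 of RPF over mRNA ran from -1.61 in UTP9 to 1.66 in RRP5, around a median of -0.21 for members and -0.80 over all genes. In the S. paradoxus parent UTP6 was lowest at -1.54 and RRP5 highest at 1.15.

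The authors' deposited table, from their own permutation test, called 45 of the 46 members for a trans difference in mRNA with the higher level in S. paradoxus, beside 28.2% of all genes, and none with the higher level in S. cerevisiae. UTP14 was the member not called. For cis differences in mRNA the authors' deposited table had 12 members higher in S. cerevisiae and 13 higher in S. paradoxus, beside 28.6% and 30.3% of all genes, and gave 33 members a p. For trans differences in translation it had 13 members higher in S. cerevisiae, NSR1 among them, and 3 in S. paradoxus, DBP8, BFR2 and UTP8, beside 13.9% and 13.8% of all genes, and 30 members had a p. Per the file's description, that test took the larger p of both replicates.

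Other genes of the pathway, from lists set with earlier results of these data known, were read with the same fit. Of 13 measured late 40S assembly factors 9 were called lower in S. cerevisiae parental mRNA and none higher, beside 26.9% and 29.8% of all genes, and of 12 RNA polymerase I genes 9 were lower and none higher. Of 40 factors for the large subunit 37 were lower and 1 higher, with a median of -0.74, and of 5 box H/ACA genes 4 were lower and none higher. Of 10 processome genes outside the member list 5 were lower and 1 higher. In the trans test of mRNA 8 late 40S factors, 8 RNA polymerase I genes, 32 large-subunit factors, 3 box H/ACA genes and 4 of the further processome genes were called lower, and none higher, beside 13.5% and 17.2% of all genes. Of 10 regulators of the regulon 4 were called higher and 3 lower between the parents, near the 29.8% and 26.9% of all genes. In the trans test of mRNA 5 of the regulators were called higher and 2 lower, beside 17.2% and 13.5% of all genes. DOT6, whose protein binds the PAC element in S. cerevisiae, had a log2 value of 1.96 between the parents, its close relative TOD6 -1.03, and STB3, whose protein binds RRPE, 0.42. In the hybrid these values were 0.73, 0.30 and -0.23. DOT6 was the highest and TOD6 the lowest of the 10 regulators between the parents. A link of any regulator to the member values was not tested.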

How the data were processed

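Polyadenylated mRNA and ribosome footprints (RPF) of hybrid and parents were analysed in 10 samples and 4 settings of 2 replicates each. The deposited signal is base-level coverage, summed by the authors over the unmasked bases of a gene for each species. All S. paradoxus values had been scaled by the authors to equal totals between species, per the file's description, so a difference in total output is not visible. Deposited p-values (adjusted) and calls of the authors come from a permutation test, and other deposited columns give unmasked bases, divergence and TATA marks. The submitters' processing notes name CASAVA 1.8.2 and Bowtie 0.12; builds are not given in the sources used here. Total coverage was 60.6 to 167 Mb per column; read depth was unknown, so no counting interval was formed. Another 24 per-sample columns stayed out, as did 3 blank lines.

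Coverage was turned into ppm of the column total, genes with a mean under 3 ppm were left out, and 0.5 ppm was added before log2. Fold changes are on that scale. Replicate ratios were fitted with limma 3.58.1 (R 4.3.3), using a mean and a weight for each of the settings and a trend (4 residual degrees of freedom). A second fit used the 16 log2 levels (8 residual degrees of freedom), in which the alleles of 1 hybrid library count as separate columns. P-values were adjusted by Benjamini-Hochberg over 4544 genes. The design was written for normalized coverage, and the scripts were tested on simulated data. Per the labels, parental mRNA came from 3 libraries; which replicate is the mixed one, and how the 2 lanes of parental RPF replicate 2 were joined, is not stated there. Samples derived from single colonies, per the labels; beyond that nothing said whether replicates were separate cultures, so the p-values reflect the spread among these samples, possibly a technical one.

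The members and the other gene lists were chosen with earlier results of these data known. Values in every sample are given for up to 5 called members per direction and comparison and for the lowest and highest member of each role by the parental mRNA value. Promoter windows came from NCBI's R64 genome and annotation through systematic names, with 4313 of 4544 tested genes matched. Alternatives were equal weights, 1 ppm added, no coverage filter, median-of-ratios scaling, correction for unmasked length, a test against 1.5-fold, a replicate block, only the settings compared, and each replicate left out; removal of the length trend was added after the data were seen.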

Additional observations from a re-analysis of the deposited data

Results flagged for a closer look

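The difference between the species was not the same in the parents and in the hybrid for 34 members in mRNA. This is by the direct limma test of parental minus hybrid ratio. All 34 were lower in the parents, beside 13.5% of all genes. The most of these calls were lost without parental mRNA replicate 2, and some without each other mRNA replicate. In RPF the same test gave 3 members, DBP8, NSR1 and UTP15, again lower in the parents, beside 2.86% of all genes. The calls of all 3 were lost in fits with 1 RPF replicate left out. UTP7 stood out because its mRNA was called lower in S. cerevisiae between the parents and higher for the S. cerevisiae allele in the hybrid, with a parental minus hybrid value of -0.83 on the log2 scale. Each of these calls was lost with 1 replicate left out: without parental mRNA replicate 2 the parental value was -0.16 (adjusted p = 0.439, limma) and the parental minus hybrid call went to an adjusted p of 0.0584 by limma, and without hybrid mRNA replicate 2 the hybrid call went to an adjusted p of 0.153 by limma.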

How the results depend on the processing

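Of 2392 called member values computed again under the alternatives, 1 changed sign: UTP20, S. paradoxus mRNA of hybrid over parent, went to -0.10 with the length trend removed. The parental and the trans mRNA values were below 0 in all 46 members under every alternative run. With equal weights for all settings, trans calls were 11 in mRNA and 19 in RPF, beside 3.32% and 10.1% of all genes lower. Cis calls were 0 in mRNA, beside 3.94% and 5.77% of all genes higher and lower, and 1 in RPF, beside 10.3% and 12.5%. For S. paradoxus RPF of hybrid over parent there were 6 calls, beside 8.98% and 12.1% of all genes higher and lower. Tested against 1.5-fold, 12 members were called in parental mRNA, 2 in trans mRNA and 3 in parental RPF. Of all genes 6.45%, 2% and 4.05% were called lower there. Calls were 0 for cis mRNA and trans RPF, beside 1.78% and 1.01% of all genes higher and 2.42% and 0.77% lower. Hybrid over parent then gave 15 S. cerevisiae calls in mRNA and 1 in RPF, beside 3.15% and 0.858% of all genes higher. For S. paradoxus it gave 1 in mRNA and 0 in RPF, beside 1.23% and 0.418% of all genes higher and 1.89% and 1.3% lower. With 1 ppm added, trans RPF had 5 calls, beside 3.24% of all genes lower. With only the settings compared in the fit, cis mRNA had 1 call and trans RPF 0. The shares of all genes were 13.4% and 1.01% higher and 15.1% and 0.946% lower. With the length trend removed, S. paradoxus hybrid over parent had 9 calls in mRNA and 1 in RPF. Of all genes 12.5% and 2.73% were then called higher and 14.8% and 7.33% lower. The cause of these moves was not tested.

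With 1 replicate left out, calls ran from 0 to 1 for cis mRNA, 16 to 37 for trans mRNA, 4 to 9 for parental RPF, 0 to 2 for trans RPF, 10 to 18 for S. paradoxus mRNA of hybrid over parent, 17 to 34 for S. cerevisiae RPF and 0 to 2 for S. paradoxus RPF of hybrid over parent. Calls over all genes fell in each of these fits, apart from trans RPF without hybrid RPF replicate 1, where they rose. A fall in member calls therefore cannot be told apart from a general loss of calls. The fits with a replicate left out assume that a lone replicate varies like the other settings. The replicate numbers share no stated culture or day, and the gene-wise replicate differences of 2 settings correlated between -0.05 and 0.18, so the numbers were not taken as pairs. With the replicate block, calls were 38 for parental mRNA, 33 for trans mRNA, 24 for parental RPF and 2 for trans RPF. Of all genes 22.9%, 12.7%, 16% and 2.35% were called lower there. Calls were 1 for cis mRNA, beside 8.05% and 9.97% of all genes higher and lower, and 0 for cis RPF, beside 1.52% and 2.42%. RPF minus mRNA had 0 calls. Its shares of all genes, higher and lower, were 0.748% and 1.28% for the parents and 0.044% and 0.022% for the hybrid. Median-of-ratios scaling shifted the median of all genes by 0.13 for parental RPF minus mRNA and by 0.11 for S. cerevisiae mRNA of hybrid over parent. It turned the split of all genes, higher to lower, to 668 and 798 for trans mRNA, beside 782 and 614, to 1186 and 996 for S. cerevisiae mRNA of hybrid over parent, beside 949 and 1334, and to 61 and 52 for parental RPF minus mRNA, beside 32 and 66. The member values that had been called kept their direction, with 39 trans mRNA calls, beside 17.6% of all genes lower.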
